A study of Mus musculus with 6 samples.

Results

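Hyaluronan is a very long, unsulfated sugar chain that holds water in the dermis, and 10 genes that make it, cut it or bind it were followed across the 6 libraries. They were chosen by symbol: the synthase genes Has1, Has2 and Has3, the hyaluronidase genes Hyal1 and Hyal2, the receptor gene Cd44, the proteoglycan gene Vcan, the link protein genes Hapln1 and Hapln3, and Tnfaip6. All 10 were found among the 23412 genes of the deposited table. The libraries held total RNA of ventral dermis from 6 mice aged 3 weeks on a mixed CD1 and C57BL/6 background, 3 controls and 3 mutants. All 6 mice carried HoxB6CreERT/+ and R26-YFP/+, a tamoxifen-inducible Cre under Hoxb6 control and a yellow fluorescent reporter. The mutants also carried CatnbΔex3/+, which makes an activated form of beta-catenin, the nuclear carrier of the canonical Wnt signal, once Cre has acted. Every mouse received tamoxifen through its mother on embryonic day 16.5. Only cells in which Hoxb6 drives the Cre can recombine, and the share of cells that did was not measured here. The labels name separate mice, and all values are FPKM (fragments assigned to a gene, scaled by its length and by library depth) as the authors deposited them.

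The hyaluronan synthases sit in the plasma membrane, where they join UDP-glucuronic acid and UDP-N-acetylglucosamine and push the growing chain out of the cell. Hyaluronidases cut the chain, CD44 is its main receptor on the cell surface, and versican, the product of Vcan, binds it through an end domain, with link proteins locking that bond. TSG-6, the product of Tnfaip6, moves heavy chains of the inter-alpha-trypsin inhibitor family onto hyaluronan. In skin, dermal fibroblasts and keratinocytes make the polymer, and versican marks the dermal papilla of growing hair follicles.

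Libraries of one group were not alike. Xist, which silences an X chromosome in female cells, was at 55.5 and 66.2 FPKM in controls 1 and 2, whose summed level of 4 Y-linked genes was at most 0.0607 FPKM, while control 3 and the mutants had sums of 47.6 to 63.4 FPKM. Mutant 2 also had 6.47 FPKM of Xist. On the first principal component (51.0% of the variance of tested genes) control 2 stood at -34.9 and mutant 1 at 33.9, with the others between -4.74 and 8.45. Gene reads ran from 7799565 in control 2 to 13478910 in mutant 1. The median-of-ratios factor is the median, over genes, of a library's FPKM divided by the gene's geometric mean over the 6 libraries. It ran from 0.878 in control 2 to 1.19 in mutant 1, and its part in the first component was not tested. Without control 2 and mutant 1, without control 3 or with library sex in the fit, many of the differences below change in size. Library sex leaves control 3 as the only control of the mutants' sex. Of the markers listed for the labelled tissue, all 11 fibroblast genes were detected, with summed levels of 2743 to 10519 FPKM in controls and 9554 to 13765 in mutants, and keratinocyte and hair shaft genes were present in every library.

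No hyaluronan gene passed the threshold. Of the 10 genes, 9 had a mean of at least 1 FPKM and were tested, and 0 of these 9 were called higher or lower in mutant dermis at an adjusted p under 0.05 (limma, Benjamini-Hochberg over 12560 genes). Over all tested genes limma called 0.143% higher and 0.00% lower. Limma-voom on reads recovered from the FPKM also called 0 of the 9, and over all tested genes it called 1.44% higher and 0.0318% lower. Of the 9, 7 had a log2 difference above 0, where 71.3% of all tested genes did, and their median was 0.19 against 0.09 over all tested genes. Vcan and Hapln3 had every mutant above every control, a pattern shown by 13.0% of all tested genes, and the same 2 genes had an unadjusted p under 0.05, as did 10.5% of all tested genes on the higher side (0.748% on the lower side, with 0 of the 9). With 3 mice a group, exact permutation of the labels gives no p below 0.1. Differences below are of log2(FPKM + 1), mutant minus control, a scale that understates the change of low genes, and intervals are 95% intervals of that fit.

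By mean FPKM over the 6 libraries the order was Cd44 (33.6), Vcan (13.6), Tnfaip6 (10.3), Hyal2 (8.47), Has3 (4.01), Hyal1 (3.90), Has1 (2.17), Has2 (1.78), Hapln3 (1.10) and Hapln1 (0.271). FPKM divides by gene length, so the order compares genes per length. Cd44 stood clear of all others in every library. The ranges of Vcan and Tnfaip6, of Tnfaip6 and Hyal2, of Has3 and Hyal1, of Hyal1 and Has1, and of Has1 and Has2 overlapped. Those neighbours were not ordered beyond their spread. The ranges of Has2 and Hapln3 also overlapped, but Has2 exceeded Hapln3 within every library. The least variable over the 6 libraries was Cd44 (SD 0.12 on the log2 scale) and the most variable were Has1 (0.52) and Tnfaip6 (0.57), among the 9 tested.

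**Figure D1:**
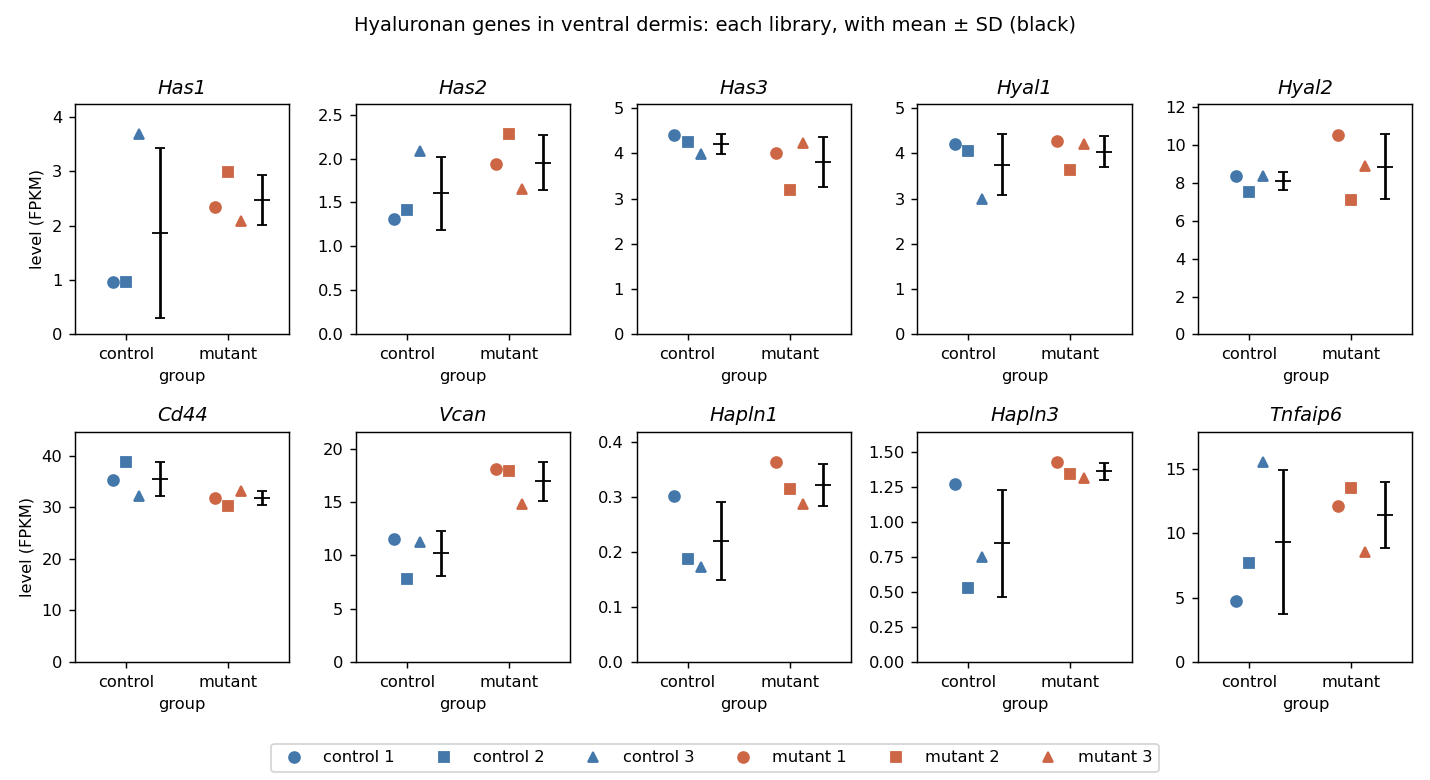
FPKM of each of the 10 genes (y axes, each from 0) in the 3 control (blue) and 3 mutant (orange) libraries, with the group mean ± SD in black. Vcan lies between 7.74 and 11.6 in controls and between 14.9 and 18.1 in mutants, Cd44 keeps a narrow range, and control 3 has the highest value of Has1 and of Tnfaip6.

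Upstream sequences are shown for the 3 genes with the largest spread between libraries, Vcan because its groups did not overlap and Has1 and Tnfaip6 because they varied together. Each is the 250 bases before the RefSeq transcription start (GRCm38.p6), on the strand of the gene. They lie at chr13:89742513-89742762 (minus strand) for Vcan, chr17:17855189-17855438 (minus strand) for Has1 and chr2:52037863-52038112 (plus strand) for Tnfaip6. Capitals mark matches to any of 3 motifs searched on both strands.
Vcan: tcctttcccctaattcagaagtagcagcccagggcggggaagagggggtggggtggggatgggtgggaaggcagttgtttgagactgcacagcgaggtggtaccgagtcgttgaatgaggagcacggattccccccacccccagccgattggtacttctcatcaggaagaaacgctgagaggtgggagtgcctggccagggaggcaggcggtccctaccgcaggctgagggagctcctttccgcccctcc
Has1: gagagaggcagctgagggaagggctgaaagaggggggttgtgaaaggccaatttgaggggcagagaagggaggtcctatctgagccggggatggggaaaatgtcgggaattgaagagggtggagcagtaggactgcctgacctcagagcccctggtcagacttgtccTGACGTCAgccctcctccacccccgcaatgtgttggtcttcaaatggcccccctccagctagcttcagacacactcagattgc
Tnfaip6: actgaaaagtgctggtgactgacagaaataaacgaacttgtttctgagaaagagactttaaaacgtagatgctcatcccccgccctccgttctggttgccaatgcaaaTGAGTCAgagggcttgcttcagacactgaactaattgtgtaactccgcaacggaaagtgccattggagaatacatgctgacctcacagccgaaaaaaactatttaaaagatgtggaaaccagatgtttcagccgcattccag
The TCF/LEF core, the element bound by the partners of beta-catenin, was searched as CTTTGAT or CTTTGTT and was found in 8.06% of 32851 RefSeq promoter windows of this length. The AP-1 element TGANTCA was in 6.75% of them and the cyclic AMP response element TGACGTCA, added after the Has1 sequence had been read, in 1.55%. These motifs do not overlap in the sequences shown. Of the 10 genes 8 had a window in the RefSeq table, and 0 of the 8 had a TCF/LEF match. Tnfaip6 had an AP-1 match 142 bases and Has1 a cyclic AMP element 83 bases before the RefSeq start. RefSeq and GENCODE starts differ for some of these genes. The GENCODE spans of Tnfaip6, Has1 and Hyal1 reach into their windows, and the windows of Hapln1 and Hyal2 lie inside theirs. What lies upstream, and at what distance, therefore depends on the annotation. A match describes the letters only.

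The synthases differed in how steady they were. Has3 (chromosome 8, 106870242 to 106884566, GRCm38), which makes comparatively short chains and is the main synthase of keratinocytes, measured 4.40, 4.24 and 3.98 FPKM in controls 1 to 3 against 4.01, 3.19 and 4.24 FPKM in mutants 1 to 3. Mutant 2 was lowest and the groups overlapped, and the log2 difference was -0.12 (interval -0.40 to 0.16, adjusted p = 0.822 with limma). Has2 (chromosome 15, 56665627 to 56694539), the synthase that the embryo cannot do without, stood at 1.31, 1.41 and 2.08 FPKM in controls against 1.94, 2.27 and 1.65 in mutants. Control 3 lay among the mutants, and the difference was 0.19 (interval -0.15 to 0.53, adjusted p = 0.739). It was 0.32 without control 3 and -0.066 with library sex in the fit. An antisense gene, Has2os, shares 182 exonic bases with Has2, or 4.30% of its exons. Chtf8, a protein-coding gene on the other strand from Has3, shares 352 exonic bases with Has3, or 5.52% of the Has3 exons. Whether strand was counted was not given in the sources used here.

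Has1 (chromosome 17, 17843323 to 17855205), a synthase of low basal expression that cytokines are known to induce, stood at 0.955, 0.964 and 3.68 FPKM in controls 1 to 3. In mutants 1 to 3 it stood at 2.34, 2.98 and 2.09. Control 3 exceeded every mutant and the other controls were lowest, from 34 and 32 reads against 93 to 133 in the mutants and 115 in control 3. The log2 difference was 0.40 (interval -0.28 to 1.08, adjusted p = 0.726). Without control 3 it was 0.82 and called (adjusted p = 0.0351 with limma), and it was below 0 with library sex as a covariate (-0.44, adjusted p = 0.9999). It was 0.19 without control 1, 0.19 without control 2 and 0.21 without control 2 and mutant 1. Adjusted p over all alternatives ran from 0.0351 upward.

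Of the 3 synthases Has1 had the widest range, and the summed level followed it. The sum of the 3 synthases was 6.67, 6.62 and 9.74 FPKM in the 3 controls, against 8.29, 8.45 and 7.98 FPKM in the 3 mutants. Its mean was 7.68 ± 1.79 in controls and 8.24 ± 0.24 in mutants (SD, n = 3 each, two-sided exact permutation p = 0.6). Has1 took 14.3%, 14.6% and 37.8% of the sum in controls and 28.3%, 35.3% and 26.2% in mutants. Has3 took 66.0%, 64.1% and 40.9% in controls and 48.4%, 37.8% and 53.1% in mutants, so control 3 lay beside or beyond the mutants in both shares. The Has2 share stayed between 19.7% and 26.9% in all libraries. The mean share differed between groups by 7.70 percentage points for Has1 and -10.6 for Has3, with two-sided exact permutation p of 0.4 and 0.3 (4 sums and shares compared; Benjamini-Hochberg adjusted p from 0.533 to 0.6).

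**Figure D2:**
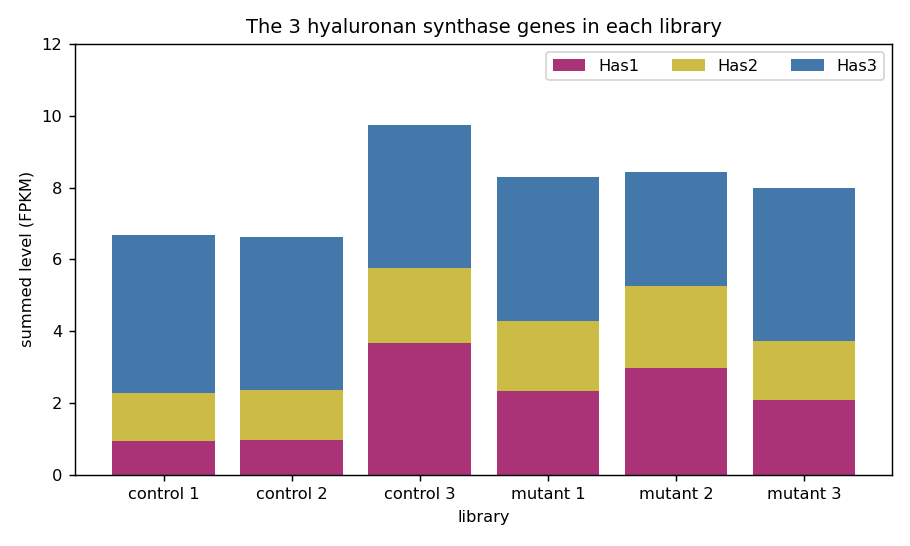
Summed FPKM (y axis) of Has1, Has2 and Has3 in each library (x axis), stacked. The sum runs from 6.62 in control 2 to 9.74 in control 3, and the Has1 part is 14.3% and 14.6% in controls 1 and 2 and at least 26.2% in the other libraries.

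Beside the 10 genes, 40 related genes in 5 lists were followed, of which 24 were tested. With limma 0 of the 24 were called, 7 had an unadjusted p under 0.05, all higher (10.5% of all tested genes), and voom on recovered reads called 2, Lyve1 and Itih5, both higher (1.44% of all tested genes with voom).

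The 7 enzymes listed as suppliers of the 2 sugar nucleotides were all tested and 0 were called. All 7 had a difference above 0 (median 0.18), as did 71.3% of all tested genes. Ugp2, which makes UDP-glucose, stood at 18.5, 15.7 and 19.3 FPKM in controls against 26.1, 19.5 and 22.1 in mutants, and its groups did not overlap, if by little (log2 difference 0.32, adjusted p = 0.516). Uap1 and Pgm3, of the route to UDP-N-acetylglucosamine, had differences of 0.26 and 0.18 (adjusted p = 0.682 and 0.666). Without control 2 and mutant 1 the differences of Ugp2, Uap1 and Pgm3 were 0.13, 0.0183 and 0.11, and with library sex in the fit 0.20, -0.0405 and 0.0481. Without control 3 they were 0.37, 0.42 and 0.25.

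The hyaluronidase genes were near level between groups. Hyal2 (chromosome 9, 107567945 to 107572779), which is anchored at the cell surface and makes the first cuts, stood at 8.39, 7.54 and 8.36 FPKM in controls against 10.5, 7.09 and 8.92 in mutants. The mutants spread around the controls, with a difference of 0.10 (interval -0.24 to 0.44, adjusted p = 0.890 with limma). Hyal1 (chromosome 9, 107576927 to 107581710), the lysosomal enzyme that cuts further, stood at 4.21, 4.06 and 2.98 FPKM in controls against 4.28, 3.64 and 4.21 in mutants. Control 3 was lowest, and the difference was 0.09 (interval -0.22 to 0.40, adjusted p = 0.889). With library sex in the fit it was 0.34. Both intervals leave room for a modest change either way. Both signs turn under median-of-ratios scaling, where they are within 0.01 of 0. In GENCODE 50.8% of the Hyal1 exons are shared with Naa80 and 4.21% with Hyal3, both on the same strand, so the reads assigned to Hyal1 are uncertain. Hyal2 exceeded Hyal1 in every library, by 1.86 to 2.80 times in controls and 1.95 to 2.46 times in mutants.

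Among the other 10 genes of hyaluronan breakdown 4 were tested and 0 called, with 2 above 0 (71.3% of all tested genes) and a median of 0.24. The lysosomal exoglycosidases Hexa and Gusb remove sugars from the ends of fragments. Hexa, the hexosaminidase alpha subunit, stood at 13.2, 7.61 and 15.8 FPKM in controls against 33.3, 16.5 and 19.6 in mutants (log2 difference 0.86, adjusted p = 0.289). Gusb, beta-glucuronidase, stood at 6.36, 3.98 and 5.78 in controls against 11.4, 7.31 and 7.22 in mutants (0.59, adjusted p = 0.288). In both, every mutant lay above every control (13.0% of all tested genes), and without control 2 and mutant 1 the differences were 0.30 and 0.23. With library sex in the fit they were 0.46 and 0.48. Tmem2, whose product cuts hyaluronan at the cell surface, had a difference of -0.11 (adjusted p = 0.859). The untested genes included Hyal3, Hyal4 and Cemip, which the table lists as 9930013L23Rik.

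Cd44 was the most abundant of the 10 genes and, among the 9 tested, the least variable. Cd44 (chromosome 2, 102811141 to 102901665), the receptor through which cells hold and take up hyaluronan, stood at 35.2, 38.8 and 32.2 FPKM in controls against 31.8, 30.3 and 33.1 in mutants. Mutant 3 lay above control 3 and the groups overlapped. The log2 difference was -0.15 (interval -0.49 to 0.19, adjusted p = 0.812 with limma), from at least 2718 reads per library. It was below 0 in all 16 alternatives, from -0.30 to -0.02, the former with voom on recovered reads. Values for the whole gene do not separate its splice forms. Macrophage markers had differences of the opposite sign: 11 of 11 macrophage markers were tested, and all 11 were above 0 (median 1.04). Of these, 10 had every mutant above every control. The shares over all tested genes were 71.3% above 0 and 13.0% with every mutant above every control. The summed macrophage level was 45.0 to 82.6 FPKM in controls and 122 to 196 in mutants. The part of these markers in the Cd44 value was not tested.

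Of the 5 other receptors listed, 4 were tested and 0 called. All 4 were above 0, as were 71.3% of all tested genes, and the median of the 4 was 0.47. Hmmr, which encodes a hyaluronan-binding protein also found on the mitotic spindle, was level, at 8.27, 7.02 and 7.09 FPKM in controls against 7.79, 7.16 and 8.01 in mutants (log2 difference 0.03, adjusted p = 0.964). Lyve1, a receptor of lymphatic endothelium and of some tissue macrophages, stood at 3.88, 3.24 and 2.95 FPKM in controls against 9.55, 9.35 and 5.52 in mutants. Every mutant exceeded every control, and the log2 difference was 1.04 (interval 0.61 to 1.47, adjusted p = 0.0803 with limma). The adjusted p was under 0.05 without control 3 (0.0498), without mutant 3 (0.0163), with voom on recovered reads (0.0495) and with a replicate block (0.0472), and ran up to 0.28 over the other alternatives. Of 5 lymphatic markers 3 were tested and all 3 were above 0, with summed levels of 7.41 to 9.53 FPKM in controls and 10.8 to 16.0 in mutants, and Ccl21a was at 0 in all libraries. The macrophage sums given above moved the same way, and the part of either cell type was not tested. In bulk tissue more cells of a type and more RNA per cell cannot be told apart. Stab1, a scavenger receptor of macrophages and endothelium, had a difference of 0.59 (adjusted p = 0.354) with overlapping groups, and the membrane lectin gene Layn of 0.35 (adjusted p = 0.390) with groups apart. With library sex in the fit Stab1 was at 0.16 and Layn at 0.22, and without control 2 and mutant 1 they were at 0.20 and 0.17.

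Vcan had the largest difference of the 9. Vcan (chromosome 13, 89655312 to 89742509), which encodes the large chondroitin sulfate proteoglycan of loose matrix and dermal papillae, measured 11.6, 7.74 and 11.3 FPKM in controls 1 to 3 against 18.1, 17.9 and 14.9 FPKM in mutants 1 to 3. Control 2 was lowest, and even the lowest mutant lay above the highest control. The means were 10.2 ± 2.12 and 16.9 ± 1.81 FPKM (SD, n = 3 each), a ratio of 1.66. The log2 difference was 0.70 (SE 0.17, interval 0.31 to 1.08), and the adjusted p was 0.143 with limma, with an unadjusted p of 0.00264. It rests on 1803 to 2889 reads in the controls and 4643 to 5617 in the mutants. The difference kept its sign in all 16 alternatives, from 0.48 without control 2 and mutant 1 to 0.79 without control 1. Its adjusted p ran from 0.0585 with voom on recovered reads to 0.9999 with library sex in the fit.

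Fibroblast genes had differences of the same sign. Of 11 fibroblast markers all 11 were above 0 (71.3% of all tested genes) and 8 had every mutant above every control (13.0%). The median of the markers was 0.91, against 0.70 for Vcan. The ratio of Vcan to a fibroblast marker depended on the marker. Its mean was lower in mutants for 9 of the 11 and higher for 2, and the groups overlapped for 8. Every mutant was lower for Lum (0.196, 0.210 and 0.163 in controls against 0.0870, 0.148 and 0.106 in mutants). The same held for Twist2 (3.27, 3.93 and 2.83 in controls against 2.07, 2.73 and 2.21 in mutants). For Pdgfrb, the platelet-derived growth factor receptor beta gene, every mutant was higher, if by little. Its ratios were 1.34, 1.40 and 1.18 in controls against 1.41, 1.74 and 1.49 in mutants. Of 8 tested dermal papilla markers 6 were above 0 and 0 had groups apart (median 0.13, sums of 34.8 to 41.8 FPKM in controls and 38.2 to 47.8 in mutants). The part of either cell type in the Vcan value was not tested.

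The link proteins were scarce beside versican. Hapln1 (chromosome 13, 89539796 to 89611652), the cartilage link protein gene, lies 43659 bases from Vcan and stood at 0.302, 0.187 and 0.172 FPKM in controls against 0.364, 0.315 and 0.288 in mutants. It had 13 to 36 reads per library, was below the level for testing, and control 1 lay within the mutant range. Vcan exceeded Hapln1 by 38.2 to 65.4 times in controls and 49.7 to 56.9 times in mutants. Hapln3 (chromosome 7, 79115102 to 79131018), a link protein gene expressed outside cartilage and brain as well, stood at 1.27, 0.528 and 0.747 FPKM in controls against 1.43, 1.34 and 1.31 in mutants. Control 1 came within 0.05 FPKM of the lowest mutant, but the groups did not overlap. The log2 difference was 0.37 (interval 0.01 to 0.73, adjusted p = 0.425 with limma), from 12 to 31 reads in the controls and 40 or 41 in the mutants. With a pseudocount of 0.1 it was 0.70, and without control 2 and mutant 1 it was 0.22.

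Each link protein gene neighbours a proteoglycan gene in the genome, and Hapln3 ends 2 bases from the end of Acan, which lies on the other strand. Acan, the aggrecan gene, stood at 2.07, 1.14 and 2.17 FPKM in controls against 2.95, 2.68 and 2.49 in mutants, with groups apart (log2 difference 0.43, interval 0.06 to 0.80, adjusted p = 0.353). Without control 2 and mutant 1 it was 0.20, and with library sex in the fit 0.23. Vcan exceeded Acan 5.20 to 6.79 times in controls and 5.96 to 6.70 times in mutants. The brain members of both families, Hapln2, Hapln4, Bcan and Ncan, were at most 0.0987 FPKM in any library. The 6 cartilage markers were all below the level for testing, with summed levels of 0.507 to 0.595 FPKM in controls and 0.584 to 0.883 in mutants.

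Tnfaip6 varied most. Tnfaip6 (chromosome 2, 52038009 to 52056686), induced in fibroblasts by inflammatory cytokines, measured 4.70, 7.68 and 15.5 FPKM in controls 1 to 3 against 12.1, 13.5 and 8.54 FPKM in mutants 1 to 3. Control 3 was the highest library and control 1 the lowest, and the groups overlapped. The log2 difference was 0.38 (interval -0.37 to 1.13, adjusted p = 0.769 with limma). It was 0.03 without control 1, 0.79 without control 3 (adjusted p = 0.1299) and -0.44 with library sex in the fit.

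Among the other hyaluronan matrix partners tested, Itih5 had the largest difference. Of 12 other matrix partners 3 were tested and 0 called, and all 3 were above 0 (median 0.43), as were 71.3% of all tested genes. Itih5, a heavy chain gene of the inter-alpha-trypsin inhibitor family, stood at 14.9, 10.5 and 14.0 FPKM in controls against 48.7, 25.2 and 33.3 in mutants. Every mutant lay above every control, and the log2 difference was 1.34 (interval 0.81 to 1.88, adjusted p = 0.0744 with limma). Its adjusted p was under 0.05 in 5 of 16 alternatives, the lowest 0.0103 with voom on recovered reads, and its difference ran from 0.96 without control 2 and mutant 1 to 1.56 without mutant 2. Itih5 is also expressed in fat. Of 7 adipocyte markers 6 were above 0 and 2 had groups apart (median 0.53), against 71.3% and 13.0% of all tested genes. The adipocyte sums were 334 to 359 FPKM in controls and 266 to 510 in mutants. All 11 fibroblast markers were above 0 and 8 had groups apart (median 0.91). The part of either cell type in the Itih5 value was not tested. The other heavy chain genes Itih1, Itih2, Itih3 and Itih4 and the bikunin gene Ambp were below the level for testing. Ptx3, the pentraxin that joins TSG-6 and heavy chains in hyaluronan cross-linking, stood at 1.34, 2.82 and 5.33 FPKM in controls against 4.599, 2.0 and 2.445 in mutants (log2 difference 0.01, adjusted p = 0.995).

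Tnfaip6 and Has1 had like courses over the 6 libraries. The measure was the root mean square difference between log2(FPKM + 1) profiles, each centred on its own mean, over the 6 libraries and all tested genes. The 3 genes nearest to Tnfaip6 were Mir301 (0.17), Has1 (0.20) and Il6 (0.21), and those nearest to Has1 were Aldh1l2 (0.15), Hspa1a (0.16) and Gfpt2 (0.16). Mir301 rests on at most 3 reads per library, and reads of Hspa1a can be shared with its near-identical copy Hspa1b. Il6 encodes an inflammatory cytokine, Hspa1a an inducible heat shock protein, Aldh1l2 a mitochondrial folate enzyme and Gfpt2 an enzyme of the first step towards UDP-N-acetylglucosamine.

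In Tnfaip6, Has1 and each of the genes nearest to them, controls 1 and 2 were the lowest libraries. Il6 stood at 1.46, 3.25 and 6.46 FPKM in controls against 7.80, 6.51 and 4.15 in mutants. Hspa1a stood at 6.61, 6.40 and 12.7 in controls against 9.06, 11.7 and 10.01 in mutants. Gfpt2 stood at 4.58, 4.46 and 9.61 in controls against 7.29, 7.48 and 5.73 in mutants. Control 3 was the highest library in Has1, Tnfaip6, Aldh1l2, Hspa1a and Gfpt2, and mutant 1 in Il6 and Mir301. The controls divide the same way by Xist. None of the 5 protein-coding genes nearest to Tnfaip6 or Has1 was called (adjusted p from 0.459 for Aldh1l2 to 0.867 for Gfpt2). That the libraries share this course is a description of 6 points, and its part in the group differences was not tested.

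**Figure D3:**
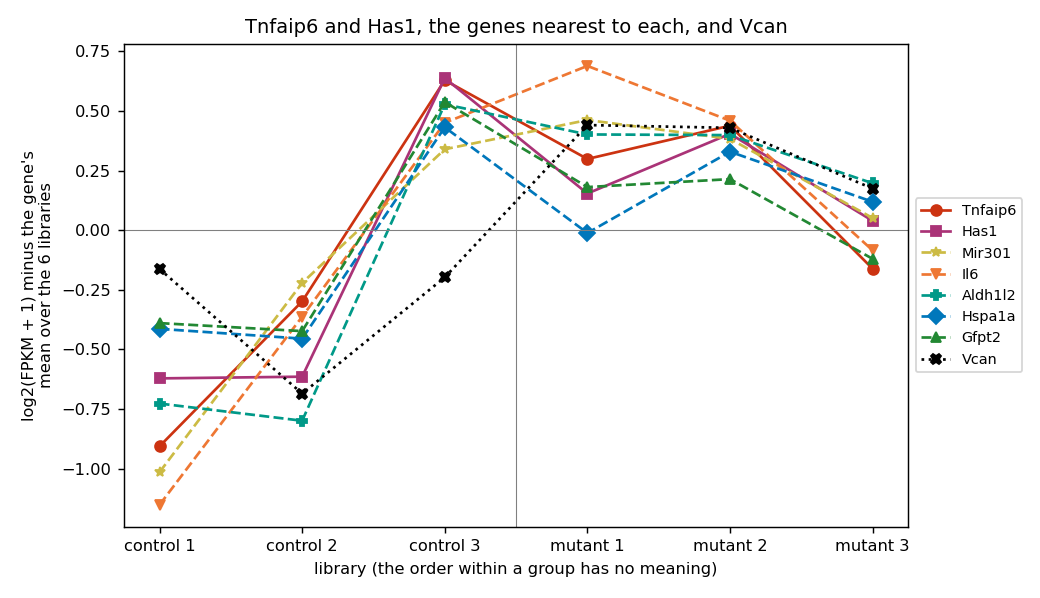
Log2(FPKM + 1) minus each gene's mean over the 6 libraries (y axis) by library (x axis), for Tnfaip6 and Has1 (solid), the genes nearest to each (dashed) and Vcan (dotted). Has1 is at -0.62 and -0.61 in controls 1 and 2 and at 0.64 in control 3, above all mutants, while Vcan is below 0 in all 3 controls and above 0 in all 3 mutants.

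Proteases that cleave versican gave no call. Of 6 tested ADAMTS genes 0 were called, 5 were above 0 (71.3% of all tested genes) and the median was 0.34. Adamts4 had a difference of 0.46 (adjusted p = 0.461), Adamts9 of 0.26 (adjusted p = 0.538) and Adamts1 of 0.36 (adjusted p = 0.548), all with overlapping groups. With library sex in the fit these were 0.0492, 0.34 and 0.025, and without control 2 and mutant 1 they were 0.26, 0.16 and 0.15. With 1 library left out Adamts4 ran from 0.25 to 0.66 and Adamts1 from 0.21 to 0.53, the highest of both being without control 3. Adamts1, at 17.3, 14.3 and 22.8 FPKM in controls against 25.6, 25.0 and 19.6 in mutants, was the most abundant of them. In 1 gene all mutants lay below all controls, as in 2.65% of all tested genes: Adamts20, picked after its values were seen, at 4.14, 3.94 and 3.95 FPKM in controls against 3.65, 2.88 and 3.68 in mutants (log2 difference -0.19, adjusted p = 0.647).

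**Figure D4:**
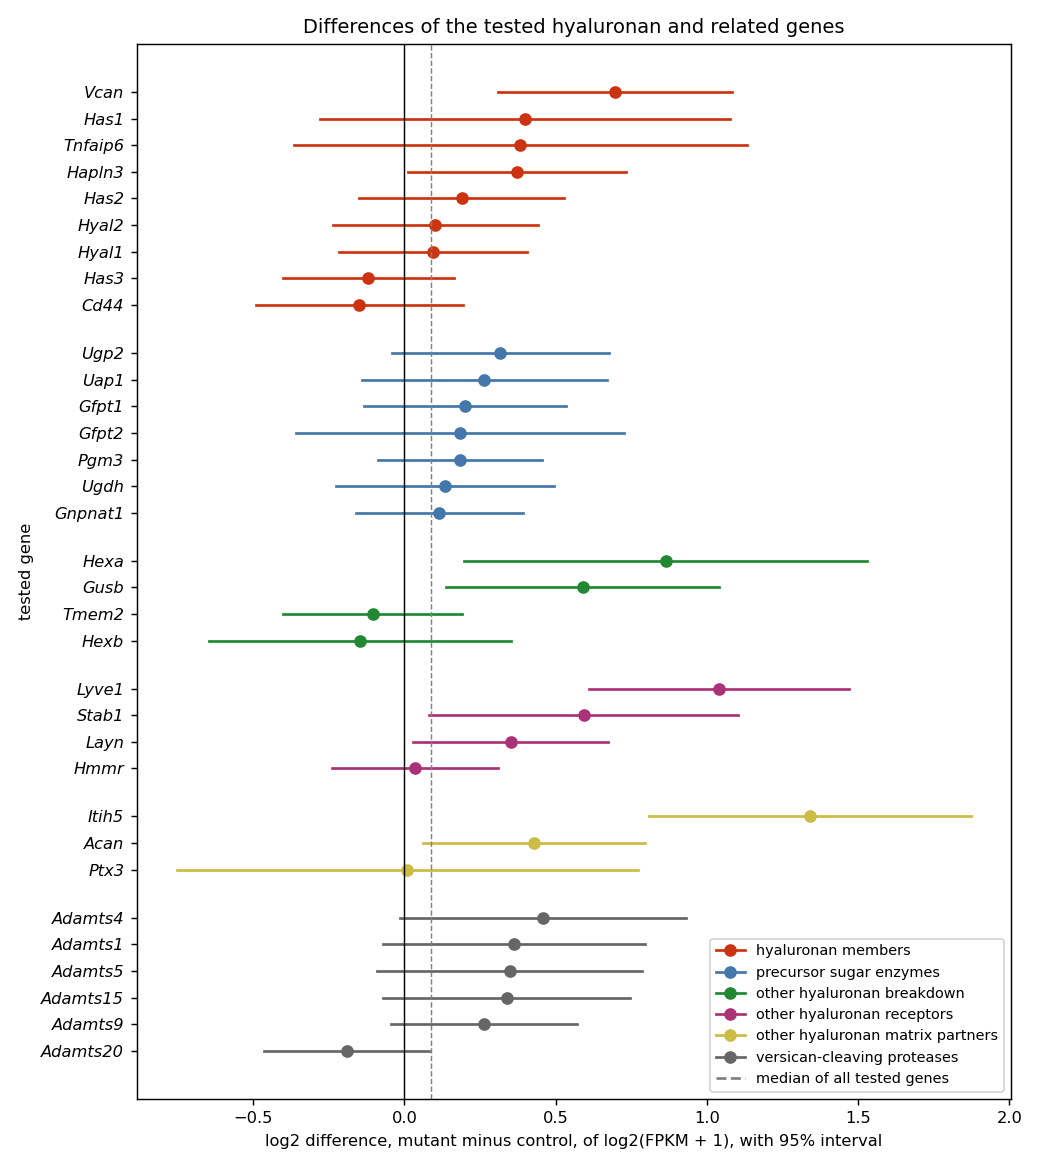
Log2 difference, mutant minus control, with its 95% interval (x axis) for every tested gene of the 6 lists (y axis, coloured by list), with the median of all tested genes (0.09) dashed. The intervals of Vcan, Hapln3, Hexa, Gusb, Lyve1, Stab1, Layn, Itih5 and Acan lie above 0, and none of these genes passed adjustment over all genes.

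Across the alternatives the sign was steady for Vcan, Hapln3, Cd44 and Has3 and turned at least once for Has1, Has2, Hyal1, Hyal2 and Tnfaip6.

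**Figure D5:**
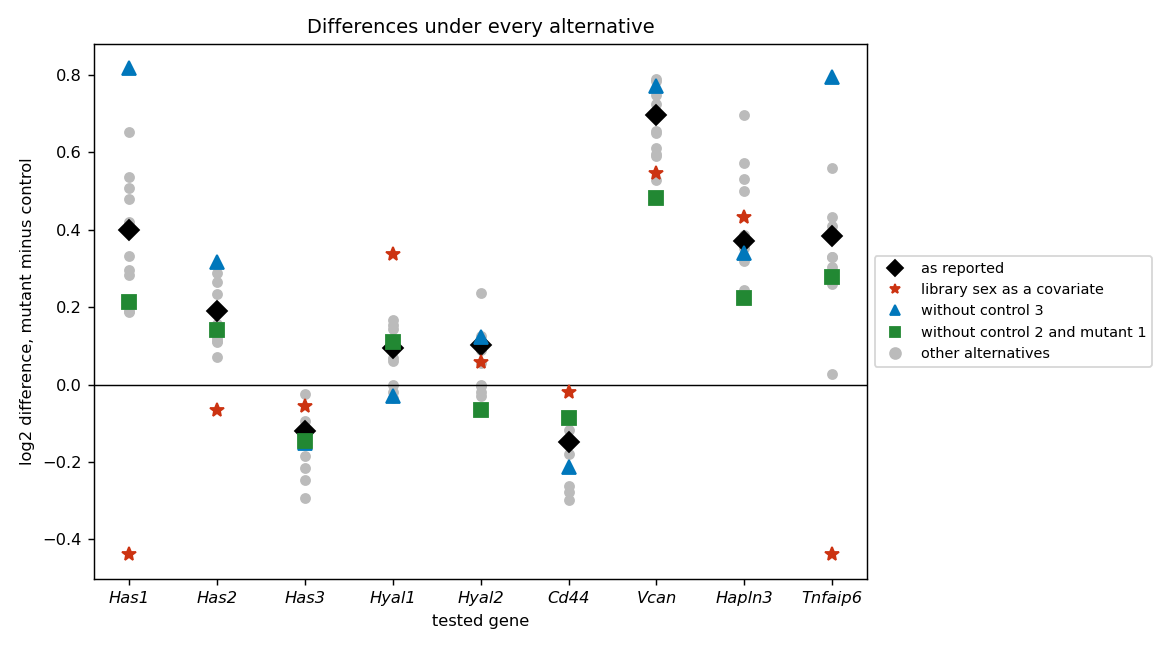
Log2 difference, mutant minus control (y axis), of the 9 tested hyaluronan genes (x axis) as reported (black) and under each alternative. Vcan stays between 0.48 and 0.79 and Cd44 between -0.30 and -0.02, while Has1 runs from -0.44 with library sex as a covariate to 0.82 without control 3.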

How the data were processed

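RNA was made into stranded paired-end total RNA libraries, per the labels' protocols. The tools GSNAP and HTSeq and the genome mm10 appear without versions, per the submitters' processing notes, while annotation, gene lengths and strand setting were not given in the sources used here. Values are the FPKM that the authors deposited, 1 column per library. Those averaging at least 1 FPKM per gene were tested as log2(FPKM + 1) with limma 3.58.1 (R 4.3.3), with an intensity trend, two-sided, with Benjamini-Hochberg adjustment over 12560 genes and a threshold of 0.05, and the script was tested on simulated data. Whole reads per gene were recovered from the FPKM steps for 23412 of 23412 genes (relative tolerance 5e-09), of which 1820 were at 0 throughout and 1448 were seen in a single library, where nothing could be checked. From simulated FPKM, 98.4% of 15180 genes holding at least 50 reads came back exactly. Reads served for depth and for a voom alternative. Locations are from GENCODE M21 (GRCm38) and promoters from RefSeq (GRCm38.p6).

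The genes, lists and tests were chosen with earlier results of these data known. The rule for named genes took all 10 genes, up to 3 genes of smallest p per related list, the Acan, Bcan, Ncan, Hapln2 and Hapln4 genes and the 3 profiles nearest to each of the 2 most variable genes. The 14 marker lists were dermal fibroblast, dermal papilla, keratinocyte, hair, macrophage, T cell, neutrophil, mast cell, blood and lymphatic endothelium, adipocyte, muscle, Schwann cell and cartilage. Replicate numbers were not used to pair libraries in the main fit, and whether they mark a pairing was not known. Alternatives changed the pseudocount, filter, scaling, covariates, libraries and test.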

Additional observations from a re-analysis of the deposited data

How the results depend on the processing

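Of 139 values of the 9 tested genes over 16 alternatives, 127 kept their direction, 12 turned and 1 was called. The called hyaluronan genes numbered 0 in all settings except without control 3, where Has1 was called higher (range 0 to 1 over the left-out libraries), and 0 were called lower throughout.

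Genes called higher over the whole table, 18 as reported, numbered 9 with a pseudocount of 0.1, 4 with no filter on low FPKM, 28 and 32 with median-of-ratios scaling and quantile normalization, 10 with library sex as a covariate, 8 without control 2 and mutant 1, 181 with voom on recovered reads and 3 to 198 with 1 library left out. Genes called lower, 0 as reported (94 at an unadjusted p under 0.05), numbered 1 with library sex, 1 without control 2 and mutant 1, 4 with voom and 0 to 4 with 1 library left out. With the label number as a replicate block 67 genes were called higher and 1 lower, and the block called no hyaluronan gene. The numbers share no animal, and deviations of same-numbered libraries correlated at 0.00159, 0.0367 and -0.0819. With 3 libraries a group these correlations cannot decide whether the numbers mark a pairing.

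The median of the tested hyaluronan genes, 0.19 as reported, was 0.29 with a pseudocount of 0.1, 0.0702 after quantile normalization, -0.020 with library sex as a covariate and 0.13 to 0.32 with 1 library left out. Over all tested genes the median was 0.09 as reported and -0.01 and -0.03 under the scalings. With library sex, Has1 (-0.44), Has2 (-0.066), Tnfaip6 (-0.44), Uap1 (-0.0405) and Ptx3 (-0.71) turned below 0. Under median-of-ratios scaling Hyal1 (-0.00044), Hyal2 (-0.0041) and Ptx3 (-0.0863) turned, under quantile normalization Hyal1 (-0.0352), Hyal2 (-0.0014) and Ptx3 (-0.13), and with voom Hyal1 (-0.020), Hyal2 (-0.0302) and Ptx3 (-0.0519). Without control 2 and mutant 1 Hyal2 (-0.0647) and Ptx3 (-0.26) turned. With 1 library left out Hyal1 ran from -0.0284 to 0.17, Hyal2 from -0.0197 to 0.24 and Ptx3 from -0.35 to 0.37. The causes were not tested. The mean FPKM 5 filter left no value for Has1, Has2, Has3, Hyal1 and Hapln3. Depth limits Hapln1, Hapln3 and Has1, with as few as 13, 12 and 32 reads in a library.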

Other observations

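Other cell types of the dissected dermis were measured beside the hyaluronan genes. Of 7 mast cell markers 6 were tested, 5 were above 0 and 4 had every mutant above every control (median 1.06). The shares over all tested genes were 71.3% and 13.0%. Summed mast cell levels were 18.2 to 30.4 FPKM in controls and 42.8 to 76.8 in mutants. Of 9 hair matrix and shaft genes all 9 were tested and 0 were above 0 (median -0.33), with sums of 4990 to 5387 FPKM in controls. The sums in mutants 1 to 3 were 5786, 2779 and 4976 FPKM, so mutant 2 was far lowest and mutant 1 lay above every control. Blood endothelial genes had a median of 0.22 over 7, keratinocyte genes of 0.23 over 9, muscle genes of 0.34 over 7 and Schwann and nerve genes of 0.18 over 5. Only 1 T cell marker (0.57) and 2 neutrophil markers (median 0.69) were tested. The neutrophil markers were S100a8 (0.26, groups overlapping) and S100a9 (1.12). S100a9 stood at 0.942, 7.78 and 1.06 FPKM in mutants 1 to 3, from 9, 81 and 11 reads, so its difference rests largely on mutant 2. In controls S100a9 stood at 0.843, 0.646 and 0.137 FPKM. Over all 20 lists 1 gene was called, in the macrophage list. The antisense and overlapping genes and the splice forms of Vcan and Cd44 were not resolved.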
